A study of Mus musculus with 41 samples.

Results

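The genes described here are 46 members of the DNA replication and mitosis programme, chosen by symbol from the 24946 gene rows of 1 table of mouse brain RNA-seq values. Of these, 20 encode replication factors (the MCM helicase subunits Mcm2 to Mcm7, Pcna, Rrm1, Rrm2, Tyms, Tk1, Cdc6, Cdt1, Gins1, Gins2, E2f1, Uhrf1, Chek1, Ccne1 and Ccne2). The other 26 encode mitotic factors (Mki67, Top2a, Cdk1, Ccna2, Ccnb1, Ccnb2, Cdc20, Plk1, Aurka, Aurkb, Bub1, Bub1b, Mad2l1, Kif11, Kif20a, Kif23, Kif2c, Cenpa, Cenpe, Cenpf, Birc5, Ube2c, Tpx2, Nusap1, Prc1 and Foxm1). The choice used no measured value, and all 46 symbols had a row. Messenger RNA came from the dissected cortex, midbrain and cerebellum of mice of both sexes on the C57BL/6J background, kept until 12 weeks of age. Control mice carried floxed Yy1 alleles and no stated Cre, and conditional knockout (cKO) mice carried the floxed alleles with GFAP-cre, which the labels describe as acting in astrocytes. No group with Cre alone was part of the comparisons, so an effect of Cre itself and of Yy1 loss cannot be told apart. There were 6 floxed and 5 cKO libraries from cortex, and 7 and 7 each from midbrain and cerebellum, with regions of the same number taken from the same animal. 2 further libraries, coded as cortex and labelled as midbrain, entered no comparison.

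Before a cell divides, the MCM helicase is loaded onto origins by Cdc6 and Cdt1, activated with GINS, and followed by polymerases held on the template by the PCNA clamp, while ribonucleotide reductase and the thymidine enzymes supply nucleotides. Entry into mitosis depends on cyclin B with Cdk1, and the Aurora and Polo-like kinases, kinesins and centromere proteins then build the spindle and separate the chromosomes. E2F factors drive many replication genes at the start of S phase, whereas FOXM1 and its partners act on mitotic genes later in the cycle. Most neurons of the adult brain do not divide, but microglia, oligodendrocyte precursors and a few neural progenitors do, and astrocytes can after injury. YY1 is a zinc finger transcription factor that both activates and represses genes.

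Values are normalised read counts, and the log2 fold of a gene is the difference of log2(value + 1) between cKO and floxed tissue, which understates the change of weakly expressed genes. Levels are not divided by transcript length, so they are compared within a gene and not between genes. Estimated depth ran from 6.81 to 69.5 M reads per library. Yy1 itself was lower in cKO tissue in each region, with a log2 fold of -0.26 (SE 0.07) in cortex, -0.24 (SE 0.06) in midbrain and -0.86 (SE 0.15) in cerebellum. The library labelled floxed cerebellum 6 went against its label in Yy1. Its Yy1 value was 585.4, within the cKO cerebellum range of 498.8 to 682.6, so for cerebellum the counts and folds of the members are also given without it. Yy1 did not separate the genotypes in cortex and midbrain either. Floxed cortex 5 and 6 (1134.5 and 1157) lay under the highest cKO cortex value of 1188.8. Floxed midbrain 2, 5 and 6 (1055.7, 1038.7 and 983.2) lay under the highest cKO midbrain value of 1068.8. Among the compared libraries labelled female, 8 carried Y-linked transcripts (animals floxed 5, floxed 6 and cKO 7). The astrocyte marker Gfap was present in all libraries and higher in cKO tissue in each region (log2 fold 2.31, 1.25 and 2.55 in cortex, midbrain and cerebellum). With all libraries it was the only riser of 12 listed astrocyte markers, of which 5 fell in cortex, 7 in midbrain and 6 in cerebellum. Over all genes 10.5% rose and 12.9% fell in cortex, 8.48% and 7.61% in midbrain, and 19.4% and 19.6% in cerebellum.

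Replication and mitosis members differ in the short sequences near their start sites, which are shown because they are the features the choice of genes did not use. A window of 250 bases before to 50 bases after the start was matched by symbol for 37 of the 46 members (16 replication, 21 mitosis) in the RefSeq table of build GRCm38.p6. Printed are the members of each class with the lowest p in cortex that had a window. Rrm2 and Mcm3 are replication members, and Cdk1 and Cdc20 are mitosis members. Capitals mark each match to the motifs named after them, on either strand, so that CCAAT also appears as ATTGG.
Rrm2 promoter, chr12:24708004-24708303, plus strand: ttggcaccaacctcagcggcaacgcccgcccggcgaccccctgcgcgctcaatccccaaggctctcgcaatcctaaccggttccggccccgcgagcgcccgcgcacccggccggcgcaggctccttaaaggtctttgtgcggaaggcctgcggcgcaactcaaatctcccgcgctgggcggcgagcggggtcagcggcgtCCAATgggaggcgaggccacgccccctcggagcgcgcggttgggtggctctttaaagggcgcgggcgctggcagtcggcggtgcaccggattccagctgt
Mcm3 promoter, chr1:20820263-20820562, minus strand: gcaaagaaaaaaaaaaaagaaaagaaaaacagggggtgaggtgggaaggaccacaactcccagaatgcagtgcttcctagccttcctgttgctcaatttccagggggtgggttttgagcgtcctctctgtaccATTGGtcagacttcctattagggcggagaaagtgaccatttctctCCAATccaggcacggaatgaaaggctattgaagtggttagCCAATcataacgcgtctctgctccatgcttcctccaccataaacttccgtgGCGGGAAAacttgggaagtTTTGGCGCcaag
Cdk1 promoter, chr10:69352863-69353162, minus strand: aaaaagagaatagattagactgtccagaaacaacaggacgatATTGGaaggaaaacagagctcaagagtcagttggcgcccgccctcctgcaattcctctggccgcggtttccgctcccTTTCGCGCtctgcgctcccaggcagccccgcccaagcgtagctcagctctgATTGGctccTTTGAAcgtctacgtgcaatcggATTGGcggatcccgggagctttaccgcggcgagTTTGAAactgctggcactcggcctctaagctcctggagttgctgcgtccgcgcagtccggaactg
Cdc20 promoter, chr4:118437294-118437593, minus strand: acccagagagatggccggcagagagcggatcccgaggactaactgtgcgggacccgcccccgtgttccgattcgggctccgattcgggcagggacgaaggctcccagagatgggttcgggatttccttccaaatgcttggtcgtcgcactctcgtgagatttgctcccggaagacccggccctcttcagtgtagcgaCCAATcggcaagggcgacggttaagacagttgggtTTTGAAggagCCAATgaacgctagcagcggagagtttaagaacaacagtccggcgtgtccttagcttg
The searched words were TTTCCCGC, TTTGGCGC, TTTGCCGC and TTTCGCGC for E2F sites, TTTGAA for the cell cycle homology region (CHR) bound by the complex that works with FOXM1, CCAAT for the CCAAT box bound by NF-Y, and GCCATNTT for YY1. In the member windows 2 matches of different motifs overlapped. An E2F word was found in 7 of 16 replication windows (43.8%), in 1 of 21 mitosis windows (4.76%) and in 2.6% of 27025 genes. The replication members with it were Cdc6, Cdt1, Mcm3, Mcm5, Mcm6, Mcm7 and Uhrf1, and the mitosis member was Cdk1. The CHR word showed the opposite split, with 1 of 16 replication windows (6.25%, Mcm2), 15 of 21 mitosis windows (71.4%) and 20.2% of all genes. A CCAAT box was present in 9 of 16 replication windows (56.2%), 17 of 21 mitosis windows (81%) and 41.1% of all genes. The YY1 word was in 2 of 16 replication windows (12.5%, Mcm5 and Rrm1), 1 of 21 mitosis windows (4.76%, Bub1) and 6.96% of all genes. A match is a description of letters and not of a bound site.

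In cortex, mitotic and replication transcripts were higher in cKO mice. Of the 46 members, all tested, 21 rose and 0 fell, against 10.5% of all genes that rose and 12.9% that fell (15731 tested, limma, Benjamini-Hochberg adjusted p under 0.05). The risers were 10 of 20 replication members and 11 of 26 mitosis members, and 34 of 46 members had an unadjusted p under 0.05. The share of all genes under that unadjusted p was not taken. The filter on low values let in 3 members (Cdk1, Bub1 and Cdc6) that the floxed libraries alone would not have passed. With no filter 19 of 46 rose, against 7.77% of all genes. In bulk tissue, a change in the number of cells of a type and a change in RNA per cell cannot be told apart.

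Cdk1, the kinase that drives mitotic entry (chromosome 10, 69335146 to 69352938, minus strand, gene annotation of GRCm38), showed the largest fold in cortex. Its floxed libraries lay at 7.7 to 15.7 normalised reads with a median of 12.4, and the cKO libraries at 111.3, 102.7, 43.2, 40.5 and 20.5 (replicates 2 to 6). The groups did not overlap, and the difference was 2.14 on the log2 scale (SE 0.30, limma with Benjamini-Hochberg adjusted p = 0.000998). Cdc20, the activator of the anaphase-promoting complex, lay at 33.3 to 54.2 in floxed (median 40.7) and at 186.7, 149.5, 125.4, 91.7 and 69.7 in cKO cortex. These groups were also separate, and the rise was 1.53 (SE 0.23, adjusted p = 0.00142). Foxm1, the transcription factor of the mitotic genes, lay at 49 to 92.4 (median 58.8) in floxed and at 182.2, 165.8, 112.8, 106.8 and 107.9 in cKO cortex (log2 fold 1.12, SE 0.18, adjusted p = 0.0017). Tpx2, a spindle assembly factor that activates Aurora A, lay at 58.2 to 87 (median 75.3) against 239.6, 223.7, 131.4, 94.3 and 114 (log2 fold 1.07, SE 0.17, adjusted p = 0.00195). Aurkb, the kinase of the chromosomal passenger complex, lay at 7.8 to 21.9 (median 15.3) against 108.6, 56.7, 42.1, 38 and 23.2 (log2 fold 1.72, SE 0.34, adjusted p = 0.00477). In each of these, replicate 2 was the highest of the cKO libraries, and the labelled female replicates 5 and 6 were at the low end.

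Widely used proliferation markers were less uniform. Mki67, which coats mitotic chromosomes, lay at 53.4 to 155.1 (median 97.4) in floxed and at 558.2, 367.2, 150.6, 60.7 and 92.1 in cKO cortex. The cKO replicates 4, 5 and 6 lay inside the floxed range, and the log2 fold of 0.96 (SE 0.34) did not pass (adjusted p = 0.0612). Top2a, the topoisomerase that untangles sister chromatids, had 28 to 100.5 (median 65.2) against 441.3, 304.4, 97.1, 50.4 and 52 (log2 fold 1.15, SE 0.39, adjusted p = 0.0522). Plk1, the Polo-like kinase, had 53.5 to 91 (median 71.5) against 163, 121.6, 106.4, 83.6 and 100.6, a log2 fold of 0.62 (SE 0.19, adjusted p = 0.0302). Cenpa, the centromeric histone, had 32 to 60.6 (median 46.9) against 145.4, 101.6, 106.6, 50.5 and 61.7 (log2 fold 0.93, SE 0.26, adjusted p = 0.0214). Thus 4 of 5 cKO libraries exceeded every floxed library for Plk1 and for Cenpa, against 2 of 5 for Mki67 and for Top2a. The other mitosis members that rose were Ube2c (1.72, SE 0.33), the ubiquitin-conjugating enzyme of the anaphase-promoting complex, Kif20a (1.09, SE 0.27), Cenpf (1.09, SE 0.26) and the spindle midzone protein Prc1 (0.82, SE 0.23).

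Of the replication members of cortex, Rrm2, Gins2 and Mcm3 had the lowest p. Rrm2, the regulated subunit of ribonucleotide reductase, lay at 33.5 to 67 (median 52.4) in floxed and at 159.1, 129.5, 103.1, 78.2 and 68.7 in cKO libraries (log2 fold 1.12, SE 0.20, adjusted p = 0.00317). Gins2, a subunit of the GINS helicase activator, had 21.1 to 27.3 (median 25.8) against 63.5, 55, 61, 35.5 and 33.2 (log2 fold 0.94, SE 0.18, adjusted p = 0.00455). Neither gene's groups overlapped. Mcm3 had 91.9 to 172.8 (median 110.6) against 324.6, 277.7, 178.7, 208.6 and 132.8 (log2 fold 0.88, SE 0.22, adjusted p = 0.014). Mcm7 had 367.9 to 457.9 (median 409.2) against 539.4, 526.7, 506.9, 462.6 and 508.3, a small and even rise of 0.31 (SE 0.08, adjusted p = 0.0142). Mcm2 had 130.6 to 174.9 (median 141.4) against 273, 263.8, 169.9, 175.3 and 151.6 (log2 fold 0.48, SE 0.14, adjusted p = 0.0261). The salvage kinase Tk1 rose by 1.45 (SE 0.39), the maintenance methylation factor Uhrf1 by 0.85 (SE 0.29), the licensing factor Cdt1 by 0.78 (SE 0.22), Mcm6 by 0.64 (SE 0.17) and thymidylate synthase Tyms by 0.54 (SE 0.17) on the log2 scale. Of the same nucleotide and helicase groups, Rrm1 (0.03, SE 0.10, adjusted p = 0.83), Mcm4 (0.17, SE 0.15, adjusted p = 0.418) and Mcm5 (0.37, SE 0.18, adjusted p = 0.147) did not pass. The S phase activator E2f1 had 439.3 to 742.3 (median 546.9) in floxed and 580.3, 620.4, 654.5, 740.5 and 719.6 in cKO cortex (log2 fold 0.22, SE 0.08, adjusted p = 0.0697), with its lowest cKO values in replicates 2 and 3, where Cdk1 was highest. The clamp gene Pcna had 948.2 to 1288 (median 1083.7) against 1135.8 to 1448.6 (log2 fold 0.21, SE 0.09, adjusted p = 0.106). In all, 9 members had every cKO library above every floxed library, against 3.83% of genes tested: Cdk1, Cdc20, Aurkb, Tpx2 and Foxm1 of the mitosis class, and Mcm7, Rrm2, Tyms and Gins2 of the replication class. Of the 21 risers, 14 were called in each of the fits that left out 1 library.

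**Figure D1:**
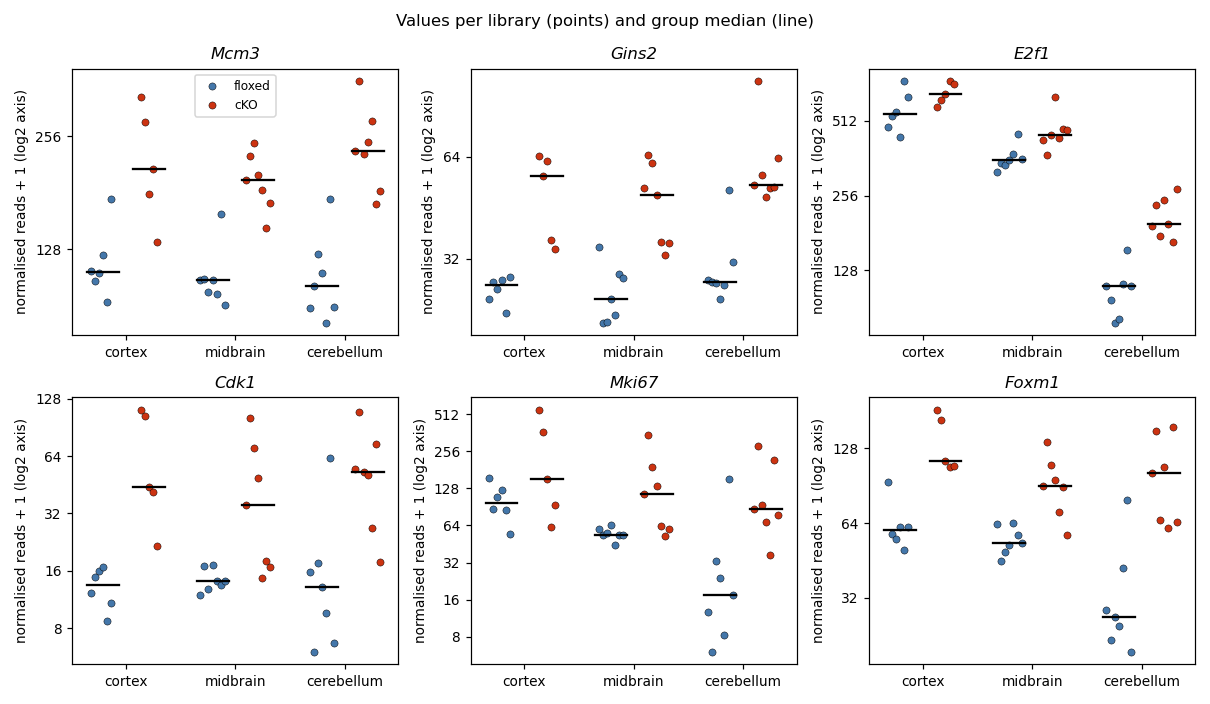
Normalised reads plus 1 (log axis) of named members in each library, with floxed and cKO libraries of the 3 regions side by side and a line at each group's median. In cortex the cKO points of Cdk1 begin at 20.5 reads, above the highest floxed value of 15.7 reads (both before adding 1), while floxed cerebellum 6 lies with the cKO points in cerebellum.

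In midbrain the members called were again higher in cKO tissue. Of 44 members tested, 23 rose and 0 fell, against 8.48% of all genes that rose and 7.61% that fell (15683 tested). The risers were 8 of 20 replication and 15 of 24 mitosis members, and Bub1 and Kif2c did not pass the filter. The floxed libraries alone would not have passed 5 of the tested members (Ccnb1, Aurkb, Ube2c, Cdc6 and Tk1). With no filter 22 of 46 rose, against 6.28% of all genes. Median estimated depth was 29.2 M reads in floxed and 22.7 M reads in cKO midbrain (exact permutation p = 0.053, two-sided), and 4 members, Aurkb, Mcm3, Mcm4 and Tpx2, were called when estimated reads entered the fit as a covariate, against 2.74% of all genes that rose. The median log2 fold of the 23 risers was 0.94, and 0.77 with that covariate, under which all 23 were above 0. When all 6 groups shared 1 fit, 6 members were called in midbrain, against 3.2% of all genes that rose.

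Tpx2 was the clearest mitosis member of midbrain. Its floxed libraries lay at 46.6 to 75.3 (median 55) and its cKO libraries at 84.2 to 204.1 (median 122.7), with no overlap (log2 fold 1.10, SE 0.16, adjusted p = 0.000388). Mcm3 led the replication class, with 90 to 157.6 (median 104.8) in floxed and 144.5 to 244.3 (median 194.4) in cKO (log2 fold 0.84, SE 0.13, adjusted p = 0.000525). Its groups overlapped through floxed replicate 6, and 6 of 7 cKO libraries lay above every floxed library. Cdc20 had 25.1 to 53.1 (median 30.1) against 41.6 to 126.2 (median 58.1), a log2 fold of 1.10 (SE 0.23, adjusted p = 0.00391). Gins2 had 19.7 to 33.7 (median 23.4) against 31.9 to 63.9 (median 48.5), a log2 fold of 0.86 (SE 0.18, adjusted p = 0.00394). Aurkb had 3.1 to 13.1 (median 6.8) against 11.2 to 73.9 (median 27.8), a log2 fold of 1.77 (SE 0.37, adjusted p = 0.00403). For Gins2 and Aurkb as well, 6 of 7 cKO libraries exceeded every floxed library.

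Unlike in cortex, both proliferation markers passed in midbrain. Mki67 had 43.5 to 63.5 (median 52.6) in floxed and 51.5 to 345.2 (median 113.5) in cKO, a log2 fold of 1.01 (SE 0.26, adjusted p = 0.0141). Top2a had 23.1 to 49 (median 30.6) against 46.2 to 334.4 (median 60.7), a log2 fold of 1.41 (SE 0.34, adjusted p = 0.0106). Passing in one region and not in the other does not show that the regions differ, and the test of that difference called neither gene. Foxm1 had 44.1 to 62.9 (median 52.1) against 56.1 to 135.1 (median 89.4), a log2 fold of 0.72 (SE 0.16, adjusted p = 0.00646). Cdk1 had 11 to 16.1 (median 13.1) against 13.7 to 100.6 (median 34.6), a log2 fold of 1.27 (SE 0.30, adjusted p = 0.00984). Cenpa had 29.7 to 40.9 (median 34.3) against 34.4 to 114.4 (median 56), a log2 fold of 0.71 (SE 0.18, adjusted p = 0.0154). Cyclin B1 (Ccnb1) rose by 1.35 (SE 0.30), the passenger complex subunit survivin (Birc5) by 1.03 (SE 0.27) and the spindle pole kinase Aurka by 0.58 (SE 0.13).

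Besides Mcm3 and Gins2, the replication members that rose in midbrain were E2f1, Mcm7, Pcna, Mcm4, Tk1 and Uhrf1. E2f1 had 318.7 to 450.6 (median 354) against 373.2 to 639.8 (median 447.1), a log2 fold of 0.35 (SE 0.10, adjusted p = 0.0236). Mcm7 had 334 to 387.3 (median 353.4) against 354.2 to 511.4 (median 440.1), a log2 fold of 0.26 (SE 0.07, adjusted p = 0.0154). Pcna had 971.5 to 1196.3 (median 1098.7) against 1105.8 to 1365.2 (median 1185.9), a log2 fold of 0.17 (SE 0.05, adjusted p = 0.045). Mcm4 (0.37, SE 0.10), Tk1 (0.99, SE 0.30) and Uhrf1 (0.79, SE 0.22) completed the class. Mcm2 had 154.7 to 202.5 (median 173.4) against 141.1 to 233.6 (median 217.1) and did not pass (log2 fold 0.23, SE 0.10, adjusted p = 0.12). Rrm2 had 36.1 to 50.2 (median 42) against 37.9 to 100.1 (median 51.5) and did not pass (0.48, SE 0.18, adjusted p = 0.0767), and neither did Plk1, with 32 to 50.4 (median 47.4) against 42.3 to 98.5 (median 52.7; 0.50, SE 0.21, adjusted p = 0.116). Every cKO library exceeded every floxed library for 2 of 46 members, Tpx2 and the untested Kif2c, and thus for 1 of the tested members, against 1.97% of genes tested. Of the 23 risers, 19 were called in each fit that left out 1 library.

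In cerebellum most members called were higher in cKO tissue and 2 replication members were lower. Of 45 members tested, 28 rose and 2 fell, against 19.4% of all genes that rose and 19.6% that fell (15334 tested). The replication class had 11 risers and 2 fallers of 20, and the mitosis class 17 risers of 25, with Kif2c under the filter. As many as 14 tested members (11 of them mitotic, Mki67 and Top2a among them) were let in only by their cKO values, and with no filter 28 of 46 rose and 2 fell, against 15.1% of all genes that rose. Without the library labelled floxed cerebellum 6, 34 rose and 2 fell of 45 tested, against 20.5% and 20.9% of all genes. Median estimated depth was 28.8 M reads in floxed and 16.3 M reads in cKO cerebellum (exact permutation p = 0.0594, two-sided). With estimated reads as a covariate 30 members rose and 1 fell, against 15.9% and 14.7% of all genes.

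Mki67 had 5 to 150.8 normalised reads in floxed cerebellum (median 16.5) and 36 to 282 in cKO (median 85.3). The highest floxed value belonged to replicate 6. The log2 fold here was 2.31 (SE 0.64, adjusted p = 0.0123), or 2.84 without that library. Top2a had 4.3 to 86.5 (median 13.4) against 34.8 to 213.2 (median 47.6), a log2 fold of 2.25 (SE 0.55, adjusted p = 0.00641), or 2.68 without it. Tpx2 had 32.3 to 140.4 (median 41.9) against 123.5 to 276.9 (median 201), a log2 fold of 1.82 (SE 0.29, adjusted p = 0.000835), or 2.06 without it. In these genes the overlap of the groups came from floxed replicate 6. Plk1 had 22.4 to 82.6 (median 31.7) against 81.6 to 160.5 (median 94.6), a log2 fold of 1.47 (SE 0.24, adjusted p = 0.000919), or 1.63 without it. Cenpa had 14.9 to 55.4 (median 22) against 53.5 to 94.6 (median 60.1), a log2 fold of 1.49 (SE 0.25, adjusted p = 0.000953), or 1.68 without it. Foxm1 had 18.4 to 78.6 (median 25.9) against 60.2 to 155.4 (median 100.9), a log2 fold of 1.61 (SE 0.33, adjusted p = 0.00229), or 1.85 without it. For Plk1 and Cenpa, 6 of 7 cKO libraries lay above every floxed library even with replicate 6 counted.

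Other mitotic regulators were higher as well. Cdk1 had 5 to 61.2 (median 12.1) against 16.8 to 108.4 (median 51.6), a log2 fold of 1.80 (SE 0.51, adjusted p = 0.0132), or 2.25 without floxed replicate 6. Aurkb had 2.5 to 27.2 (median 5.7) against 4.9 to 64.1 (median 21), a log2 fold of 1.58 (SE 0.54, adjusted p = 0.0331), or 1.93 without it. Cdc20 had 86.4 to 218.6 (median 95.8) against 100.8 to 306.5 (median 187.1), a log2 fold of 0.87 (SE 0.25, adjusted p = 0.0147), or 1.05 without it. Each of these had 2 or 3 of 7 cKO libraries above every floxed library, and without floxed replicate 6 the groups of Aurkb and Cdc20 still overlapped. Ube2c (2.20, SE 0.57, and 2.65 without it), the kinetochore protein Cenpf (2.0, SE 0.46, and 2.36), Birc5 (1.95, SE 0.46, and 2.33), the midzone kinesin Kif23 (1.74, SE 0.47, and 2.10) and the kinetochore motor Cenpe (1.09, SE 0.24, and 1.26) rose too. The checkpoint genes Bub1b (0.11, SE 0.36) and Mad2l1 (0.18, SE 0.13) were not called in any region, nor were Bub1, Ccna2, Ccnb2, Kif11, Kif2c and Nusap1 of the mitosis class. Without floxed replicate 6, Bub1 (1.05, adjusted p = 0.0415), Ccna2 (0.55, adjusted p = 0.043) and Ccnb2 (0.59, adjusted p = 0.0221) were called in cerebellum, while Bub1b (0.25, adjusted p = 0.598) and Mad2l1 (0.22, adjusted p = 0.186) were not.

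Replication members divided in cerebellum. Mcm7 had 535.9 to 800.1 (median 584.1) in floxed and 820.7 to 1114.1 (median 963.6) in cKO, with no overlap, a log2 fold of 0.67 (SE 0.10, adjusted p = 0.000646), or 0.73 without floxed replicate 6. E2f1 had 77.3 to 153.5 (median 109.2) against 164.9 to 271.6 (median 196.1), also with no overlap, a log2 fold of 1.01 (SE 0.16, adjusted p = 0.000777), or 1.09 without it. Mcm3 had 80.5 to 173.3 (median 101.1) against 168.1 to 358.2 (median 232.1), a log2 fold of 1.14 (SE 0.19, adjusted p = 0.000986), or 1.29 without it. The third member with no overlap was the helicase loader Cdc6, at 10 to 20.5 (median 15.6) against 23.2 to 44.2 (median 24.1), a log2 fold of 0.97 (SE 0.23, adjusted p = 0.00539), or 1.03 without it. These 3 of 46 members compare with 2.91% of genes tested. Without floxed replicate 6 the groups of further members did not overlap, among them Mki67, Top2a, Tpx2, Plk1, Cenpa, Foxm1, Mcm3 and Gins2. Those of others, such as Aurkb, Cdc20, Mcm6 and Tk1, still did, and no share of all genes was taken without that library. Gins2 had 23.3 to 49.9 (median 26.4) against 47.7 to 106.2 (median 51.8), a log2 fold of 1.00 (SE 0.22, adjusted p = 0.00343), or 1.13 without it. Cdt1 (1.09, SE 0.18, and 1.23 without it), Tk1 (1.94, SE 0.65, and 2.45), Uhrf1 (1.36, SE 0.34, and 1.62), the replication checkpoint kinase Chek1 (0.82, SE 0.30, and 0.95), Mcm6 (0.72, SE 0.18, and 0.84) and Mcm4 (0.43, SE 0.11, and 0.49) rose. Gins1 was called without that library alone (0.78, adjusted p = 0.0189).

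The members that fell in cerebellum were the helicase subunit Mcm5 and cyclin E1, the partner of Cdk2 at the start of S phase. Mcm5 had 297.5 to 407 (median 349.5) in floxed and 145.4 to 335.8 (median 261) in cKO (log2 fold -0.53, SE 0.17, adjusted p = 0.0255), or -0.57 without floxed replicate 6. Ccne1 had 179.3 to 287.2 (median 264) against 118.8 to 186.4 (median 169.9), a log2 fold of -0.63 (SE 0.13, adjusted p = 0.00259), or -0.73 without it. The groups of Mcm5 overlapped with and without that library, while those of Ccne1 overlapped through it alone, since the other floxed libraries had 254.8 to 287.2. Mcm2 had 242.4 to 375.6 (median 332.5) against 269.8 to 509.7 (median 318.8) and did not pass (0.09, SE 0.14, adjusted p = 0.598, and 0.15 without it), nor did Pcna with 1030.9 to 1533.7 (median 1295.1) against 948.9 to 1760 (median 1384.2; 0.10, SE 0.13, adjusted p = 0.558, and 0.14 without it). Rrm2 had 9.7 to 80.7 (median 34.7) against 34.3 to 208.8 (median 44.5) and did not pass (1.05, SE 0.48, adjusted p = 0.0963), but passed at 1.32 without floxed replicate 6 (adjusted p = 0.0324). The subunits of the same MCM hexamer therefore showed log2 folds from -0.53 (Mcm5) to 1.14 (Mcm3) in one tissue. Of the 30 members called, 24 were called in each fit that left out 1 library, Ccne1 among them but not Mcm5.

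**Figure D2:**
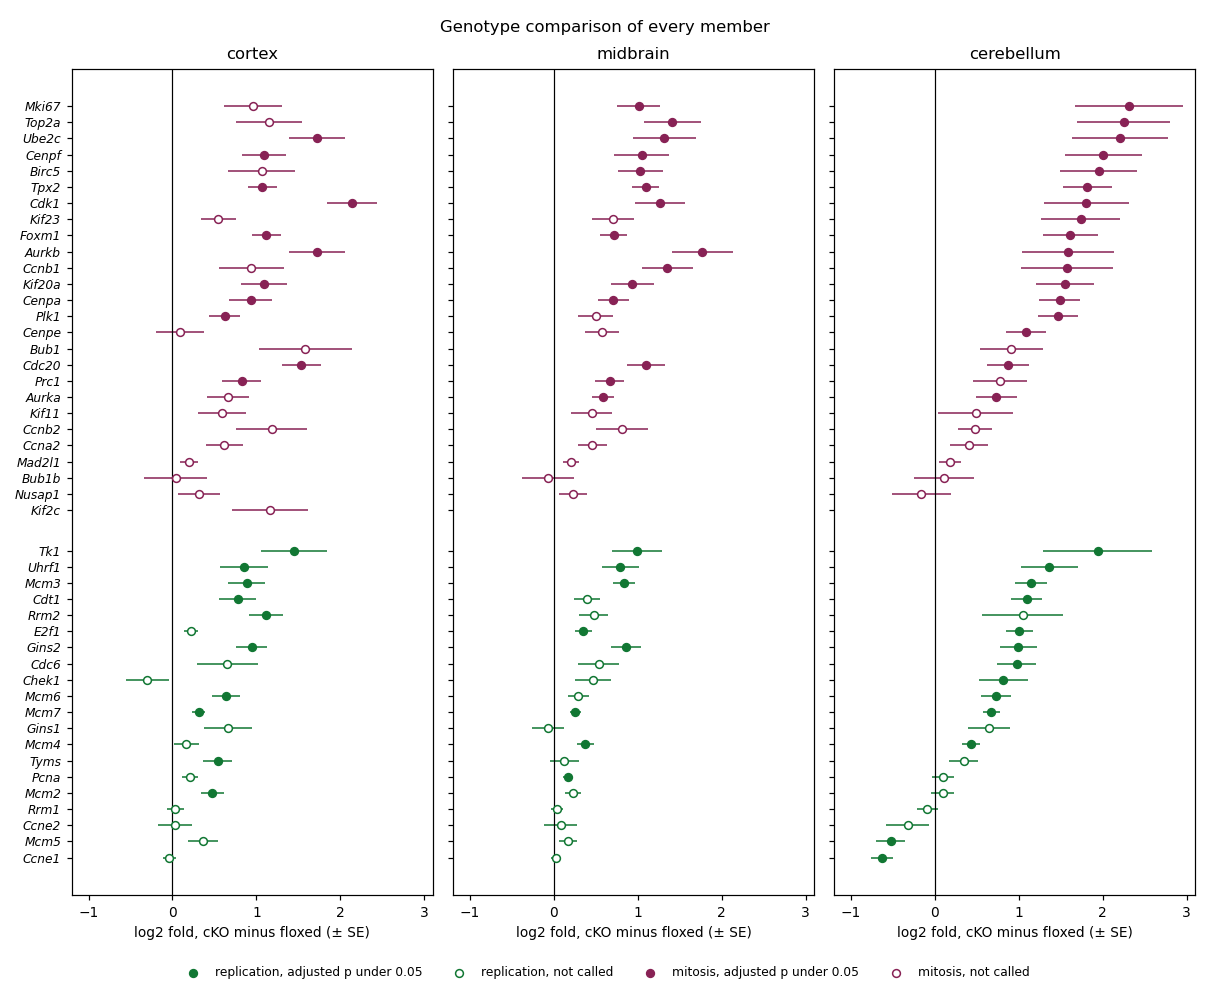
Log2 fold (cKO minus floxed, bars are the SE) of every member tested in the 3 regions, mitosis members above and replication members below, filled where the adjusted p was under 0.05. In cerebellum the mitosis points reach 2.31 (Mki67), while Mcm5 and Ccne1 lie left of 0.

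Mitosis members had larger folds than replication members in each region, as a description with no test of the classes. The median log2 fold of tested members was 1.01 for mitosis and 0.51 for replication in cortex, 0.77 and 0.32 in midbrain, and 1.48 and 0.70 in cerebellum. The median over all genes tested was -0.01 in each region. Without floxed cerebellum 6 the cerebellar medians were 1.68 and 0.81. Folds ran from 0.04 to 2.14 for mitosis and from -0.30 to 1.45 for replication in cortex, from -0.07 to 1.77 and from -0.06 to 0.99 in midbrain, and from -0.16 to 2.31 and from -0.63 to 1.94 in cerebellum. The range was wider for mitosis in cortex and midbrain, and slightly wider for replication in cerebellum. Rrm1, the large subunit of ribonucleotide reductase, had log2 folds of 0.03, 0.04 and -0.09 in the 3 regions. The summed value of the 26 mitosis members ran from 1223 to 1507 in floxed and from 1469 to 4598 in cKO cortex, from 950 to 1061 and from 1153 to 3443 in midbrain, and from 834 to 2250 and from 1496 to 3291 in cerebellum. The summed value of the 20 replication members ran from 3778 to 4631 and from 4499 to 6241 in cortex, from 3742 to 4345 and from 4046 to 5353 in midbrain, and from 4173 to 5572 and from 4854 to 7656 in cerebellum. The mitosis sums of the genotypes did not overlap in midbrain, and in cerebellum they overlapped through floxed replicate 6 alone, as the other floxed sums ran from 834 to 993. The replication sums of cerebellum still overlapped without it, with other floxed sums of 4173 to 5085.

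Across regions, 14 members rose in all 3: Gins2, Mcm3, Mcm7, Tk1 and Uhrf1 of the replication class, and Aurkb, Cdc20, Cdk1, Cenpa, Cenpf, Foxm1, Kif20a, Tpx2 and Ube2c of the mitosis class. In at least 1 region 33 members rose (15 replication, 18 mitosis), and 13 were not called higher in any. Of these 13, Bub1, Ccna2, Ccnb2 and Gins1 were called in cerebellum without floxed replicate 6. Kif2c was tested in cortex alone, and Bub1 was not tested in midbrain. Shares of all genes were not taken for these joint counts, so they are not set against a background. Mcm2, Rrm2 and Tyms were called in cortex alone, Pcna in midbrain alone, and Cdc6, Cenpe, Chek1 and Kif23 in cerebellum alone, which does not by itself show that regions differ. The libraries of a number came from the same animal, so the regions do not give independent evidence. Several members overlap a gene on the other strand (Cdc20 with Elovl1, Kif20a with Cdc23, Ube2c with Tnnc2, Gins2 with Gse1, Tk1 with Afmid, Prc1 with Rccd1, Nusap1 with Oip5, Ccna2 with Exosc9, Ccne2 with Ints8, and Mcm7 with Cops6 and Ap4m1), and no strand setting was given, so their reads cannot be told apart from those of the partner. Tyms may share reads with its pseudogene row.

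The difference of the genotype effect between regions was tested in a fit of all 6 groups, in which all 46 members were tested. Between midbrain and cortex it called 0 members (limma), against 0% of all genes higher and 0.006% lower. An unadjusted p under 0.05 was seen for 2 members, and its share of all genes was not taken. Between cerebellum and cortex 2 members were higher in cerebellum, E2f1 by 0.78 (SE 0.18, adjusted p = 0.00316) and Chek1 by 1.13 (SE 0.38, adjusted p = 0.0406), against 6.4% of all genes. Ccne1 was lower by a difference of -0.60 (SE 0.13, adjusted p = 0.0025) and Mcm5 by -0.88 (SE 0.23, adjusted p = 0.00907), against 8.09% of all genes. Between cerebellum and midbrain 4 members were higher, Cdt1 by 0.70 (SE 0.26), E2f1 by 0.65 (SE 0.17), Mcm7 by 0.41 (SE 0.12) and Plk1 by 0.97 (SE 0.32), against 10.4% of all genes. The same 2 members, Ccne1 (-0.66, SE 0.13) and Mcm5 (-0.69, SE 0.22), were lower, against 12% of all genes. These counts are near or under the background shares. With the animal as a block (correlation 0.194), 7 members were called between cerebellum and cortex, the added ones being Cenpe (1.06, adjusted p = 0.0193), Mcm7 (0.36, adjusted p = 0.0277) and Plk1 (0.88, adjusted p = 0.0395), where 8.69% of all genes were higher and 10.4% lower. Between cerebellum and midbrain the block gave 8, adding Cenpa (0.77, adjusted p = 0.0396) and Foxm1 (0.90, adjusted p = 0.0254), where 13.9% of all genes were higher and 15.5% lower. With the block, 10.9% of members were higher and 4.35% lower in the first comparison and 13% and 4.35% in the second, close to or under those shares. Without animal floxed 6 and with no block, 8 members were higher and 2 lower against cortex. These were 17.4% and 4.35% of members, against 8.99% and 10% of all genes. Against midbrain 9 were higher and 2 lower, at 19.6% and 4.35% of members and 13.5% and 14% of all genes. Those higher in both were E2f1 (0.83 and 0.70), Kif23 (1.64 and 1.51), Mcm7 (0.42 and 0.49), Mki67 (2.01 and 1.79), Plk1 (1.06 and 1.13) and Tpx2 (1.02 and 1.01), and both comparisons use the same cerebellum libraries. Without animal floxed 1 the count against midbrain was 3.

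Libraries of 1 group differed strongly in these genes. For each library the distance of each member from the floxed median of its region was taken, and its median over a class is given here. In cortex, cKO replicates 2, 3 and 4 stood at 1.94, 1.58 and 0.72 (log2) for mitosis members and at 0.97, 0.52 and 0.26 for replication members. The cKO replicates 5 and 6 stood at 0.28 and 0.11 for mitosis and at 0.14 and 0.10 for replication, while the floxed libraries lay between -0.20 and 0.18 for mitosis. In midbrain, cKO replicates 1 to 4 stood at 0.87, 1.75, 1.11 and 0.96 for mitosis members and replicates 5 to 7 at 0.25, 0.38 and 0.27. In cerebellum no such split was seen, with cKO replicates 1 to 7 at 1.24, 2.11, 1.49, 1.32, 1.00, 2.0 and 0.99, and floxed replicate 6 at 1.51. The standard deviation between libraries was taken in each genotype, and the larger value was kept for each class. It was larger for mitosis than for replication, at 0.80 against 0.36 in cortex, 0.55 against 0.21 in midbrain and 0.60 against 0.25 in cerebellum. In cerebellum the mitosis value came from the floxed group and the replication value from the cKO group. That floxed value rests on replicate 6, as the other floxed libraries lay between -0.23 and 0 for mitosis members.

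**Figure D3:**
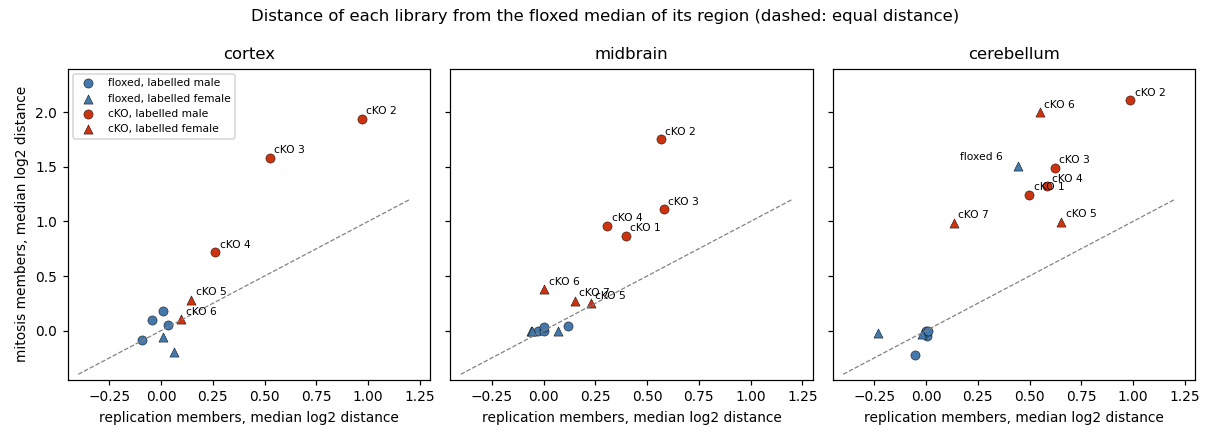
Median log2 distance from the floxed median over replication members (horizontal) and mitosis members (vertical), 1 point per library, for the 3 regions. The cKO point of cortex replicate 2 lies at 0.97 and 1.94, and floxed cerebellum 6 at 0.44 and 1.51, among the cKO points.

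The split between cKO libraries in cortex and midbrain followed labelled sex, and a fit of genotype by labelled sex was added after these values were seen. Within labelled males 32 members rose in cortex (21 mitosis, 11 replication) and 31 in midbrain (20 and 11), while in cerebellum 27 rose and 2 fell (17 mitosis members and 10 replication members rose). Over all genes 9.01% rose and 8.44% fell in labelled males in cortex, 9.62% and 9.11% in midbrain, and 15.6% and 14.5% in cerebellum. Within labelled females limma called 0 members in each region, with an unadjusted p under 0.05 for 5 mitosis and 2 replication members in cortex, 2 and 1 in midbrain, and 7 and 5 in cerebellum. Few genes of any kind were called in labelled females, with 0.172% that rose and 0.0636% that fell in cortex, 0.0893% and 0.00638% in midbrain, and 0% and 0% in cerebellum. Without the library labelled floxed cerebellum 6, which is labelled female, 10 members rose and 0 fell in labelled females of cerebellum, against 5.57% and 3.92% of all genes. The test of the difference itself, female minus male, called 0 members in each region, with an unadjusted p under 0.05 for 9 mitosis and 7 replication members in cortex, 13 and 4 in midbrain, and 2 and 0 in cerebellum. Of all genes, 1664 of 15731, 1343 of 15683 and 858 of 15334 had such a p in this test. Over all genes this test called 0.0826% higher and 0.0445% lower in cortex, 0% and 0% in midbrain, and 0% and 0% in cerebellum. The median difference over mitosis members was -0.88 in cortex, -0.87 in midbrain and -0.60 in cerebellum. Without floxed replicate 6 the cerebellar median was -0.11, and the test again called 0 members and 0% of all genes. For Mki67 in cortex the log2 fold was 1.43 (SE 0.38) in labelled males and 0.15 (SE 0.49) in labelled females, and the difference of -1.29 (SE 0.62) did not pass (adjusted p = 0.505). The labelled females were few, being replicates 5 and 6 of each genotype in cortex and replicates 5 to 7 in midbrain and cerebellum. As 8 compared libraries labelled female carried Y-linked transcripts, labelled sex is not sex by transcripts. In cortex the labelled females were male by transcripts in floxed and female in cKO libraries, so genotype and transcript sex cannot be told apart there. Labelled sex also went with replicate number, and these cannot be told apart either. In cKO cortex Gfap varied in the same order as the mitosis members, at 40760, 39938, 28035, 12633 and 6215 normalised reads in replicates 2 to 6. In cKO midbrain it stood at 30402, 37120, 36608, 26570, 16768, 11965 and 19728 in replicates 1 to 7, again higher in replicates 1 to 4 but in another order within both sets. In cKO cerebellum it stood at 63053, 33937, 22621, 60063, 34675, 15071 and 34752, with the lowest value in replicate 6, where the mitosis members were near their highest. The part of Gfap-expressing cells in the result was not tested.

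In floxed tissue the members differed between cerebellum and cortex about as often as all genes did. Against cortex, floxed cerebellum had 10 members higher and 19 lower, where 22.4% of all genes were higher and 40.1% lower, close to the members' 21.7% and 41.3% (limma, fit of all 6 groups, 16659 tested). Replication members split into 8 higher and 6 lower, and mitosis members into 2 higher and 13 lower with a median of -0.93, with no test between the classes. Without animal floxed 6 the members were 9 higher and 23 lower, against 3571 and 6518 of 16626 genes, and the mitosis median was -1.08. The median over all genes was -0.14, and rescaling by median ratios changed the split over all genes from 3726 higher and 6688 lower to 5057 and 5485, and that of the members to 10 and 17. With all libraries E2f1 was lower in cerebellum by the widest margin, with a log2 difference of -2.45 (SE 0.12, adjusted p = 1.67e-19), from a median of 546.9 in cortex to 109.2. Mki67 (-2.22, SE 0.52) and Top2a (-1.98, SE 0.52) were lower. Cdt1 (1.23, SE 0.19), Mcm2 (1.14, SE 0.12), Ccne2 (1.04, SE 0.24) and Mcm5 (0.95, SE 0.16) were higher, as were Cdc20 (1.38, SE 0.26) and Ccnb2 (0.91, SE 0.36) of the mitosis class. Without animal floxed 6 these were -2.50 (E2f1), -2.82 (Mki67), -2.58 (Top2a), 1.24 (Cdt1), 1.10 (Mcm2), 1.17 (Ccne2), 0.97 (Mcm5) and 1.32 (Cdc20), each still called, and Ccnb2 was not. Mki67 and Top2a then lay lower than E2f1.

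Against midbrain, floxed cerebellum had 10 members higher and 12 lower, where 23.4% of all genes were higher and 39% lower. Rescaling by median ratios made this 11 and 8, with 4752 and 5704 of all genes in place of 3903 and 6500. Without animal floxed 6 it was 10 and 19, where 23% of all genes were higher and 38.5% lower. Between midbrain and cortex 0 members were higher and 2 lower, E2f1 (-0.65, SE 0.12) and Plk1 (-0.77, SE 0.24), where 9.89% of all genes were higher and 15.6% lower. With the animal as a block 5 members differed (11.6% of all genes higher and 18.8% lower), and with median ratios 3, with 2061 higher and 1983 lower of all genes in place of 1648 and 2592. E2f1 thus stood in the order cortex, midbrain, cerebellum in floxed tissue, and each neighbouring pair differed.

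**Figure D4:**
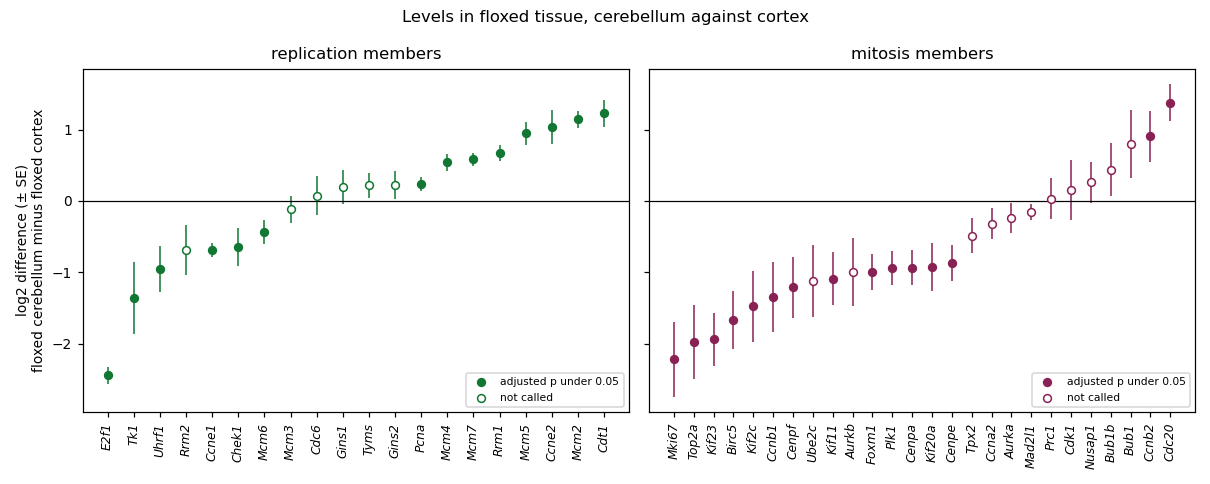
Log2 difference of floxed cerebellum minus floxed cortex (bars are the SE) for replication members (left) and mitosis members (right), ordered by value and filled where the adjusted p was under 0.05. With all libraries, as drawn, E2f1 lies lowest at -2.45, and Mcm2, Cdt1 and Cdc20 lie above 1.

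Further genes of the same programme, taken from lists beyond the 46 members, moved the same way. Of 47 other replication genes, 14 of 45 tested rose and 0 fell in cortex, 12 of 44 rose and 0 fell in midbrain, and 24 of 43 rose and 1 fell in cerebellum. Of 54 other mitosis genes, 21 of 52 tested rose and 0 fell in cortex, 21 of 42 and 0 in midbrain, and 34 of 45 and 1 in cerebellum. Over all genes 10.5%, 8.48% and 19.4% rose in the 3 regions. Without floxed cerebellum 6 the cerebellar counts were 27 and 1 of 43, and 36 and 1 of 45. Medians for the replication list were 0.17, 0.20 and 0.46, and for the mitosis list 0.58, 0.53 and 1.07. The histone chaperone Asf1b rose from 18.8 ± 4.62 (SD, n = 6) to 50.5 ± 23.3 (SD, n = 5) in cortex. The kinetochore gene Spc25 rose by 1.71 (SE 0.22) in cortex and 2.52 (SE 0.41) in cerebellum, and Cks1b, a subunit of cyclin-dependent kinases, by 1.40 (SE 0.17) in cortex and 1.11 (SE 0.17) in midbrain.

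Regulators of G1 phase moved in both directions. Of 25 such genes, 5 rose and 6 fell in cortex, against 10.5% and 12.9% of all genes. In midbrain 3 rose and 0 fell, against 8.48% and 7.61%, and in cerebellum 6 rose and 6 fell of 24 tested, near the shares of all genes there (19.4% and 19.6%). The D-type cyclins Ccnd1 (0.46, SE 0.09) and Ccnd3 (0.36, SE 0.06) rose in cortex, and Ccnd2 rose in cerebellum by 1.57 (SE 0.20). Mycn, a driver of granule neuron precursor division, fell by 1.40 (SE 0.26) in cerebellum. Of 6 CDK inhibitors tested, 3 rose and 1 fell in cortex, 2 and 1 in midbrain, and 3 and 1 in cerebellum. Cdkn2c rose by 1.15 (SE 0.20), 0.87 (SE 0.17) and 1.32 (SE 0.23) in the 3 regions and the p53 target Cdkn1a by 0.76 (SE 0.15), 0.59 (SE 0.14) and 1.23 (SE 0.30), whereas Cdkn1b fell by 0.34 (SE 0.06), 0.28 (SE 0.08) and 0.69 (SE 0.19).

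Markers of cell types that can divide moved with these genes to different degrees. Over all genes 10.5% rose and 12.9% fell in cortex, 8.48% and 7.61% in midbrain, and 19.4% and 19.6% in cerebellum. Of 12 homeostatic microglia markers, 9 rose and 1 fell in cortex, 7 and 1 in midbrain, and 12 and 0 in cerebellum, with medians of 0.54, 0.41 and 1.40. None of them was at 0 in every library. Their summed level ran from 8741 to 13404 in floxed and 9789 to 22121 in cKO cortex, from 7556 to 10914 and from 8423 to 15556 in midbrain, and from 2777 to 8799 and from 7836 to 13404 in cerebellum. The highest cKO sum in cortex was in replicate 2 (22121) and the lowest in replicate 6 (9789), and the floxed cerebellum value of 8799 was that of replicate 6, where the other floxed libraries had 2777 to 3304. Of the activated microglia markers, 9 of 13 rose in cortex, 9 of 14 in midbrain and 12 of 14 in cerebellum, and their sums ran from 72208 to 93848 and 90182 to 112323, from 76874 to 95470 and 86555 to 99547, and from 61173 to 91709 and 75838 to 360885. The part of microglia in the rise of the replication and mitosis members was not tested.

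Markers of other cell types gave the following counts, to be read against the same shares of all genes. Of 10 markers of oligodendrocyte precursors, 0 rose and 0 fell in cortex, 0 and 1 in midbrain, and 1 and 3 in cerebellum, with sums of 11688 to 17517 in floxed and 12324 to 15157 in cKO cortex. Of 12 neural progenitor and neuroblast markers, 1 rose and 5 fell in cortex, 1 and 1 in midbrain, and 1 and 4 of 10 tested in cerebellum. Granule neuron precursor markers had 0 risers and 2 fallers of 5 tested in cortex, 0 and 1 of 6 in midbrain, and 1 and 3 of 6 in cerebellum. Of 12 astrocyte markers, 1 (Gfap) rose and 5 fell in cortex, 1 and 7 in midbrain, and 1 and 6 in cerebellum. Monocyte and neutrophil markers had 2 risers of 4 tested in cortex, 1 of 2 in midbrain and 3 of 5 in cerebellum, where Lyz2 rose by 2.77 (SE 0.49). Their sums ran from 172 to 326 in floxed and 272 to 1094 in cKO cortex, from 156 to 235 and 214 to 734 in midbrain, and from 174 to 696 and 817 to 6612 in cerebellum, and their part in the rise of the members was not tested. Of 10 endothelial markers, 0 rose in each region and 7 fell in midbrain. Lymphocyte markers had 2 tested in each region, of which 0, 1 and 1 rose (Cd4). Of 10 mature oligodendrocyte markers 5, 4 and 2 fell and 0 rose, of 10 neuron markers 3, 1 and 5 fell and 1, 1 and 0 rose, and of 4 blood markers tested 1, 2 and 0 fell. Without floxed cerebellum 6 the cerebellar counts that changed were those of astrocyte markers (2 rose and 7 fell), oligodendrocyte precursor markers (2 rose and 3 fell) and monocyte and neutrophil markers (4 of 7 tested rose).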

How the data were processed

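Poly(A) RNA of whole cortex, midbrain and cerebellum was sequenced, and 1 table of 41 libraries was used, of which 39 entered comparisons. STAR, Salmon, DESeq2 and build mm10 appear in the submitters' processing notes, without versions or order. The deposited values are called raw counts, but library totals span only 21.5 M to 28.8 M, so they were treated as a normalised signal that the authors had scaled before they deposited it. How they scaled it is not given here, as no source states it. Steps between low values differed from gene to gene, so whole reads were not recovered and no count model was run. Relative depth was estimated from the most frequent value under 20 in each library (6.81 M to 69.5 M reads). 26 rows whose symbols had turned into dates, at most 0.351% of a library, were left out, which left 24946 of 24972 rows.

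Values were analysed as log2(value + 1) with limma 3.58.1 in R 4.3.3 (trend and robust), two-sided, with labelled sex as covariate and Benjamini-Hochberg adjustment over all genes tested. A gene was tested when its value reached 10 in a number of libraries no lower than the size of the smaller group. A gene was called at an adjusted p under 0.05. Each region was fitted alone, and differences between regions came from a fit of all 6 groups. Tables and figures used Python 3.11.15, pandas 2.3.3, numpy 2.4.6, scipy 1.17.1 and matplotlib 3.10.9. Scripts were tested on simulated data. Replicates are separate animals, and the regions of a number share an animal. All 46 members could be named; values in every library, or the range and median of groups over 5, were given for Mki67, Top2a, Cdk1, Mcm2, Pcna, Foxm1, E2f1 and the 3 members of each class with the lowest p per region, and up to 4 genes with the lowest p were taken from each further list. Mcm5, Ccne1 and Cdc6 were given in the same way after their values were seen. Members, lists and tests were chosen with earlier results of these data known. Alternatives were the pseudocount, the filter, scaling, covariates, library weights, blocks and leaving out libraries. The labelled-sex interaction, and its fit and the further lists without floxed cerebellum 6, were added after seeing the data.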

Additional observations from a re-analysis of the deposited data

Results flagged for a closer look

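Dixon's criterion was applied to 96 groups (16 members in the 6 groups of region and genotype), and in 21 of them 1 library stood apart from the others. The criterion is set to flag about 1 in 20 independent groups of normally distributed values. Here the values were not log-transformed and the members share libraries, so the count is not compared with that rate. Of these, 11 were the library labelled floxed cerebellum 6, the highest of its group at Mki67 (150.8), Top2a (86.5), Cdk1 (61.2), Cdc20 (218.6), Aurkb (27.2), Cenpa (55.4), Tpx2 (140.4), Mcm7 (800.1), Rrm2 (80.7), Gins2 (49.9) and Foxm1 (78.6). Its Yy1 (585.4) and Gfap (25729) values also lay among those of the cKO libraries. Floxed midbrain 6, from the same animal, was the highest of its group at Cdc20 (53.1), Mcm3 (157.6) and E2f1 (450.6). The library cKO midbrain 2 was highest at Top2a (334.4) and Cenpa (114.4), and cKO cerebellum 2 at Mcm2 (509.7) and Gins2 (106.2). Foxm1 stood apart in floxed cortex 1 (92.4) and E2f1 in cKO midbrain 4 (639.8). The library cKO midbrain 6 was the lowest of its group at Mcm2 (141.1).

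The genotype effect differed between regions by a tested contrast for 7 members. In cerebellum against cortex the differences were 0.78 for E2f1, 1.13 for Chek1, -0.60 for Ccne1 and -0.88 for Mcm5. In cerebellum against midbrain they were 0.70 for Cdt1, 0.65 for E2f1, 0.41 for Mcm7, 0.97 for Plk1, -0.66 for Ccne1 and -0.69 for Mcm5. E2f1, Ccne1 and Mcm5 differed in both, and both contrasts use the same cerebellum libraries. Over all genes 6.4% were higher and 8.09% lower in the first contrast, where the members' shares were 4.35% and 4.35%, and 10.4% and 12% in the second, where they were 8.7% and 4.35%. With all libraries, each share of the members lay under that of all genes. Without animal floxed 6 this did not hold for the members that were higher. Their share was then 17.4% in the first contrast (8.99% of all genes) and 19.6% in the second (13.5% of all genes). The share lower was 4.35% in both (10% and 14% of all genes).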

How the results depend on the processing

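No log2 fold of a named member within a region, and no class median of those folds, changed sign under the alternatives run. Counts by direction did turn: members of floxed cerebellum against midbrain were 10 higher and 12 lower, but 11 and 8 with median ratios and 10 and 8 with a pseudocount of 5, and all genes of floxed midbrain against cortex went from 1648 and 2592 to 2061 and 1983 with median ratios. Of 1248 alternative values for single named members, 60 lost their call, most often Pcna in midbrain, and 23 gained one. In cortex the count of members called was 21, and 37 with library weights (14.8% of all genes rose), 8 with a replicate block (4.2%) and 32 without animals floxed 5, floxed 6 and cKO 7 (9.84%), all of them higher. With no sex covariate it was 14 (6.64%), and with Xist in place of labelled sex 29 (6.58%), again all higher. The count over all genes in cortex, 3693, became 2040 with no sex covariate, 1623 with Xist in its place, 1164 with the replicate block and 2302 when the 6 groups shared 1 fit. In midbrain the members called, 23, became 4 with estimated reads as a covariate and 6 when the 6 groups shared 1 fit, and the count over all genes, 2524, became 721 and 961. Same-numbered floxed and cKO libraries share only a number: correlations of their deviations ran from -0.313 to 0.214. With this replicate block 21 members rose and 0 fell in midbrain, against 6.35% and 6.03% of all genes. In cerebellum 27 rose and 1 fell, against 14.6% and 13.7% of all genes.

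Between regions, with the animal as a replicate block, 5 members in place of 2 differed between floxed midbrain and cortex, and the genotype effect differed for 7 in place of 4 between cerebellum and cortex. Without floxed 5, floxed 6 and cKO 7 the latter was 10, and 10 in place of 6 between cerebellum and midbrain. Against cortex 17.4% of members were then higher and 4.35% lower (7.94% and 9.21% of all genes). Against midbrain these shares were 19.6% and 2.17% (11.2% and 11.6% of all genes). Leaving out 1 library gave 15 to 28 members in cortex, 19 to 27 in midbrain and 25 to 36 in cerebellum. Over all genes these fits called 2513 to 3607, 1939 to 2932 and 4690 to 6490. Leaving out 1 animal gave 1 to 3 members between floxed midbrain and cortex, 3 to 10 for the genotype effect in cerebellum against cortex, and 3 to 11 in cerebellum against midbrain. Rescaling to equal library totals moved the split over all genes from 1656 higher and 2037 lower to 2093 and 1442 in cortex, and from 2968 and 3012 to 3748 and 2175 in cerebellum, where 29 members were higher and 2 lower. Weakly expressed members rest on few reads in the shallow libraries, and the depth of each is an estimate.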

Other observations

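The libraries coded as cortex and labelled as midbrain, 1 floxed and 1 cKO of replicate 7, belong to no comparison. The floxed one had 110.5 normalised reads of Mki67, 17.3 of Cdk1, 97.3 of Mcm3 and 76.9 of Tpx2. The cKO one had 105 of Mki67, 43.2 of Cdk1, 192.2 of Mcm3 and 131.7 of Tpx2.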
